A study of Homo sapiens with 4 samples.

Results

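RS4;11 and SEM are the 2 of 4 human precursor-B acute lymphoblastic leukemia cell lines in this RNA-seq study that carry the translocation t(4;11), and they are compared here with each other. They were chosen by that label, and all 4 lines were cultured under 1 protocol (RPMI medium with fetal bovine serum, harvest before confluence) with no treatment. The other lines, NALM6 and REH, lack t(4;11) and serve only as background. Each line was sequenced as 1 library of polyadenylated RNA, so no difference between the lines has a replicate check and no p-value is given. A difference between RS4;11 and SEM holds everything in which these cultures differ, since each line grew out of the leukemia of a different patient.

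The translocation t(4;11) joins MLL (KMT2A), a histone methyltransferase gene, to AFF1, a component of transcription elongation complexes. The fusion protein keeps genes of early blood progenitors active, among them the HOXA cluster, MEIS1 and FLT3. Leukemias with this fusion carry features of very immature B-lineage cells and often express some myeloid genes beside B-cell genes. Normal B precursors pass through a stage in which RAG1, RAG2 and DNTT rearrange the immunoglobulin genes, and then display a precursor B-cell receptor made with the surrogate light chains VPREB1 and IGLL1.

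The summed gene counts were 51872617 for RS4;11 and 33620574 for SEM, within the range of 33620574 to 84212986 over the 4 lines. A level of 1 CPM (the usual depth-scaled count, here each count over the summed counts of its library) was reached by 11721 genes in RS4;11 and 11918 genes in SEM. The most abundant gene, EEF1A1, took 2.07% and 1.83% of the 2 libraries. A count under 3 was set to a floor of 3 counts for every log2 ratio and for the fold threshold, which is 0.0578 and 0.0892 CPM. Counting intervals below are exact 95% Clopper-Pearson intervals of the ratio of the CPM values. For a gene with 0 counts in the lower line, the ratio is given at the floor. Only the lower end of its interval is then given, and it can lie below that ratio. Intervals and floor reflect counting error alone and leave out variation between cultures and libraries. Without molecular identifiers several reads can stem from the same molecule, so the intervals may be too narrow even for counting error. Where values for a gene are given as a pair with no line named, that of RS4;11 comes first and that of SEM second. CPM values are not scaled by transcript length, so levels are compared between lines and not between genes. The library kit does not mark strand, and reads of overlapping or antisense genes are therefore not separated.

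The 5 genes used to tell the lines apart are given first, with the sequence before a listed start of each. CEBPA (chr19:33790840-33793430, hg19), the transcription factor that starts the granulocyte and monocyte program, stood at 9.41 CPM in RS4;11 but 159 in SEM. ANPEP (chr15:90328126-90358072), the aminopeptidase known as the myeloid antigen CD13, had 0.848 and 195 CPM. TCF7 (chr5:133450402-133483920), the WNT-responsive factor TCF1 of early T cells, had 0.463 and 119 CPM. These 3 genes were therefore 16.9-fold (15.4 to 18.5), 230-fold (171 to 317) and 257-fold (172 to 401) higher in SEM, and NALM6 and REH had at most 2.32 CPM of any of them. FLT3 (chr13:28577411-28674729), a receptor tyrosine kinase of blood progenitors, had 318 and 2063 CPM, a 6.49-fold difference (6.38 to 6.6). RAG1 (chr11:36589563-36601310), the catalytic subunit of the V(D)J recombinase, went the other way with 226 and 1.84 CPM, a 123-fold difference (95.6 to 160). NALM6 had 696 CPM of RAG1 and REH 3315 CPM, so SEM was the line that stood apart. Shown are the 250 bases before the first-listed start of each gene (RefSeq, GRCh38.p14), 5′ to 3′ on the gene's strand, with CG dinucleotides in capitals because these are the sites of promoter DNA methylation.
CEBPA: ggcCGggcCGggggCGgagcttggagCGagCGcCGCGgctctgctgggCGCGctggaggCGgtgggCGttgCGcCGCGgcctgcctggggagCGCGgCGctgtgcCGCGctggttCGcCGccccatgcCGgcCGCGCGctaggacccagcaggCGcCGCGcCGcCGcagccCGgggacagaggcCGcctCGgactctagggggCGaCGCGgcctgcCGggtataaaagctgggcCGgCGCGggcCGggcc
ANPEP: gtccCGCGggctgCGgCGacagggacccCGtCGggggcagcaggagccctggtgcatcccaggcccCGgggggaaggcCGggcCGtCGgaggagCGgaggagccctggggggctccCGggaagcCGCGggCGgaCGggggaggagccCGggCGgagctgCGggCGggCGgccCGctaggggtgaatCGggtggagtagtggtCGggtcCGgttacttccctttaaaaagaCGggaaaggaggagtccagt
TCF7: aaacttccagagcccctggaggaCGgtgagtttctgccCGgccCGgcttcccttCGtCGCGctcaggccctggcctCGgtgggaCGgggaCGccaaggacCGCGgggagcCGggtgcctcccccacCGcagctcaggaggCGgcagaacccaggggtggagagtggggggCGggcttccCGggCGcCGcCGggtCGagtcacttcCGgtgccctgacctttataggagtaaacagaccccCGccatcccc
FLT3: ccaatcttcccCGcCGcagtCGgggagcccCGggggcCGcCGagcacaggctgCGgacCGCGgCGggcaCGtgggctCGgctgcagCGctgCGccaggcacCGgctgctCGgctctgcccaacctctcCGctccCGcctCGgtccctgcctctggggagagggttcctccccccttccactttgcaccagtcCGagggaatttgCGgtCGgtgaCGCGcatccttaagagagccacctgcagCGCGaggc
RAG1: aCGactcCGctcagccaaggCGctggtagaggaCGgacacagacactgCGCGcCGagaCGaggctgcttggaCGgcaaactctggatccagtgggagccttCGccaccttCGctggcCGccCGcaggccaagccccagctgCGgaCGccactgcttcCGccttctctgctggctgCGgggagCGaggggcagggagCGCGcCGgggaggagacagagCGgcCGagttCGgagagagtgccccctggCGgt

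The CEBPA window (chr19:33302535-33302784, minus strand) held 41 CG dinucleotides, the ANPEP window (chr15:89814853-89815102, minus strand) 26 and the TCF7 window (chr5:134115363-134115612, plus strand) 22. The FLT3 window (chr13:28100577-28100826, minus strand) held 26 and the RAG1 window (chr11:36510103-36510352, plus strand) 25. The median over 27305 first-listed promoters was 11, with quartiles of 3 and 23. Above the upper quartile lay 4 of the 5 windows, with TCF7 just under it. Those promoters include genes not measured here. Relative to the number expected from the C and G bases, CEBPA had 1.01, ANPEP and RAG1 0.82, FLT3 0.81 and TCF7 0.70. The median over measured genes was 0.83, among the 79.3% with a matched promoter. ANPEP and TCF7 each have another listed start, whose windows held 9 and 1. The windows are on GRCh38.p14 and the counted loci on hg19, and they were not matched to each other. The listed start of RAG1 may lie far before the locus counted here. Counts per gene do not separate the starts, and DNA methylation was not measured.

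Between RS4;11 and SEM 12445 genes reached 1 CPM in at least 1 of the lines. Of these, 534 genes (4.29%) were at least 4-fold higher in RS4;11 and 793 genes (6.37%) at least 4-fold higher in SEM, together 1327 genes (10.7%). The median log2 ratio of RS4;11 over SEM was -0.02 and the median absolute log2 ratio 0.34. Differences of at least 64-fold were counted for 63 genes higher in RS4;11 and 220 higher in SEM. SEM thus held most of the genes with very large ratios. The floor was 0.0578 CPM in RS4;11 and 0.0892 CPM in SEM, so a gene missing from RS4;11 could reach a larger ratio. The 64-fold counts were not repeated at equal depth. Genes higher in SEM with under 3 counts in RS4;11 numbered 258, of which 170 had 0 counts and 91 reached 10 CPM in SEM. Genes higher in RS4;11 with under 3 counts in SEM numbered 109, of which 51 had 0 counts and 19 reached 10 CPM in RS4;11. At the threshold, NBPF10 at 4.001-fold lay just inside and SCN11A at 3.997-fold just outside among genes higher in RS4;11, and GUCY1B3 at 4.002-fold and CLEC2B at 3.993-fold among genes higher in SEM. Of 9585 genes at 10 CPM or more in at least 1 of the lines, 225 were at least 4-fold higher in RS4;11 and 371 in SEM. List counts below at 10 CPM or more are to be read beside these, not beside 10.7%.

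**Figure D1:**
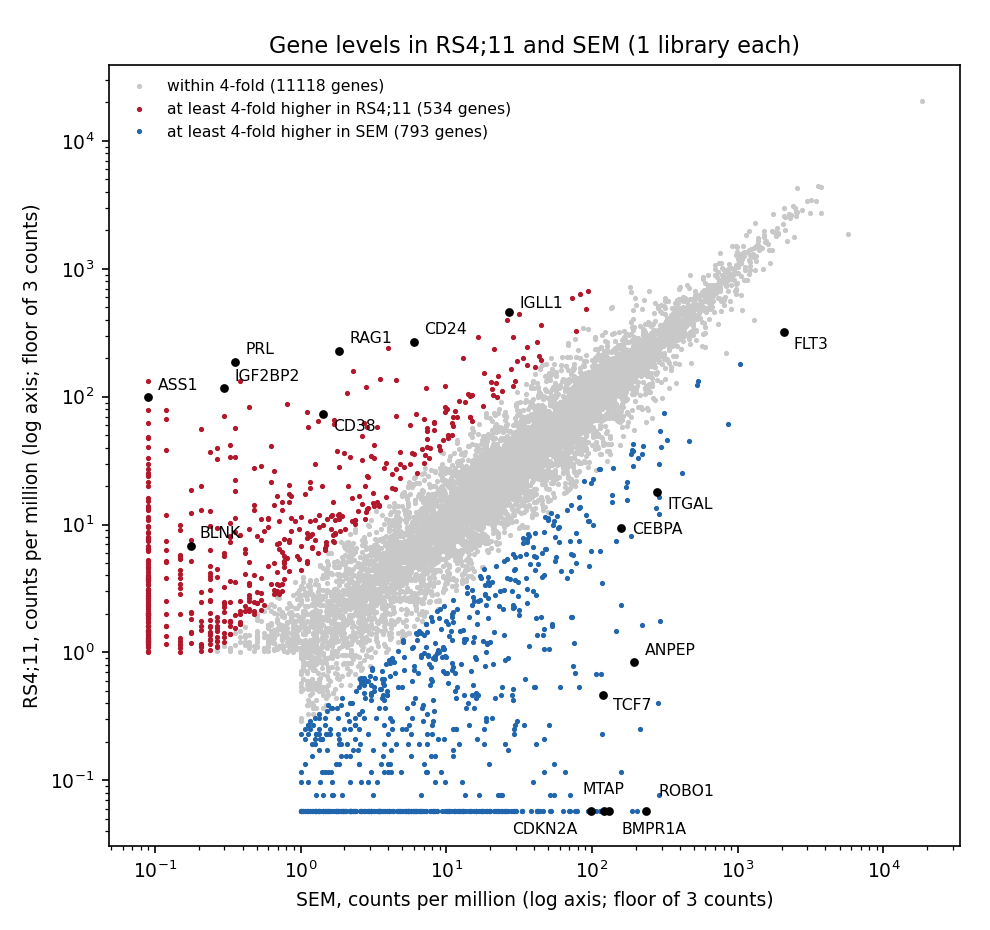
Level of each of the 12445 measured genes in SEM (horizontal) and RS4;11 (vertical), in CPM on log axes, with values under 3 counts drawn at the floor. Red points are the 534 genes at least 4-fold higher in RS4;11, blue points the 793 genes at least 4-fold higher in SEM and grey points the rest. The row of blue points along the bottom holds the genes with at most 3 counts in RS4;11.

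The t(4;11) lines differed from each other in fewer genes than any other pair of the 4 lines. At least 4-fold differences were counted for 14.4% of measured genes between RS4;11 and NALM6, 17.2% between RS4;11 and REH, 16.6% between SEM and NALM6, 19% between SEM and REH, and 16.4% between NALM6 and REH. The pairs share libraries and are not independent of each other. Of the 534 genes higher in RS4;11, 215 (40.3%) had both NALM6 and REH nearer to RS4;11 and 135 (25.3%) had both nearer to SEM. Of the 793 genes higher in SEM, 373 (47%) had both nearer to RS4;11 and 167 (21.1%) both nearer to SEM. Over 13457 genes at 1 CPM in any line, 353 were at least 4-fold above all 3 other lines in SEM and 120 in RS4;11. These counts were 248 in NALM6 and 642 in REH.

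Defining genes of the labelled precursor-B cell were expressed in both lines. PAX5, the factor that commits cells to the B lineage, had 273 and 419 CPM. EBF1, which acts with PAX5, had 351 and 189 CPM, and CD22, an inhibitory B-cell lectin, 167 and 141 CPM. CD79A, a signalling chain of the B-cell receptor, had 285 and 105 CPM. These 4 genes lay within 2.71-fold of each other in the 2 lines. The partner chain CD79B had 122 and 9.73 CPM, and the surrogate light chains VPREB1 and IGLL1, given below, were also much lower in SEM.

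The recombinase genes separated SEM from the other 3 lines. Of 15 measured genes of V(D)J recombination and end joining, 3 were at least 4-fold higher in RS4;11 and 0 in SEM, and the median log2 ratio was 0.17. These 3 were 20%, beside 10.7% of all measured genes. All 3 were the lymphoid-specific genes. Beside RAG1, the cofactor RAG2 had 64.5 and 1.31 CPM, 49.3-fold higher (36.6 to 67.9), with 113 CPM in NALM6 and 648 CPM in REH. DNTT, the polymerase that adds untemplated bases at the joins, had 12.9 and 0.744 CPM, 17.3-fold higher (11.6 to 26.9). NALM6 and REH had 759 and 1913 CPM of DNTT, far above both t(4;11) lines. The other 12 genes, among them the end-joining genes XRCC5, PRKDC and LIG4 and the RAG-assisting chromatin proteins HMGB1 and HMGB2, lay within 4-fold.

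Of 20 measured genes of the precursor B-cell receptor and its proximal signals, 5 were at least 4-fold higher in RS4;11 and 0 in SEM, with a median log2 ratio of 1.09. These 5 were 25%, beside 10.7% of all measured genes. VPREB1 had 294 and 16.4 CPM, and IGLL1 462 and 27.1 CPM, differences of 17.9-fold (16.5 to 19.5) and 17-fold (15.9 to 18.2). VPREB3, a chaperone of the receptor chains, had 21.7 and 1.16 CPM. CD79B was 12.6-fold higher (11.3 to 14.1). BLNK, the adaptor that couples the receptor to downstream enzymes, had 6.82 and 0.178 CPM, against 89.5 and 260 CPM in NALM6 and REH. RS4;11 was therefore close to NALM6 and REH for IGLL1 and far below them for BLNK. REH had 0.226 CPM of VPREB1, so that gene was low in REH as well as in SEM. The kinases BTK (205 and 162 CPM) and SYK (250 and 127 CPM), which signal from the receptor, differed by less than 4-fold.

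B-lineage transcription factors differed mostly in the same direction, with 7 of 24 measured members at least 4-fold higher in RS4;11 and 1 in SEM, and their median log2 ratio was 1.17. Together 33.3% were apart, beside 10.7% of all measured genes. FOXO1, which switches on RAG transcription, had 65.2 and 1.7 CPM, 38.4-fold higher (29.6 to 50.9), with 141 CPM in NALM6 and 370 CPM in REH. BACH2, a repressor active in B precursors, had 80.4 and 10.1 CPM. SOX4, needed for early B-cell survival, had 639 and 82.5 CPM. Both were at 296 CPM or more in NALM6 and REH, leaving SEM as the low line. BCL6, a repressor of the pre-B and germinal centre stages, was 5.8-fold higher (5.37 to 6.26) and the ETS factor SPIB 4.81-fold higher (4.28 to 5.42). The octamer factor POU2F2 and its coactivator POU2AF1 were 4.44-fold and 4.73-fold higher. The exception was IRF8, a factor shared by B cells and monocytes, with 27.7 and 140 CPM. IKZF1 (497 and 136 CPM), TCF3 (692 and 397 CPM) and ERG (205 and 127 CPM) lay within 4-fold.

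Surface antigens of B precursors were split, with 6 of 21 measured members at least 4-fold higher in RS4;11 and 3 in SEM (median log2 ratio 0.31). Together 42.9% were apart, beside 10.7% of all measured genes. CD38, an ectoenzyme of early and activated lymphocytes, had 72.8 and 1.43 CPM, 51-fold higher (38.4 to 69.2), with 141 and 127 CPM in NALM6 and REH. The tetraspanin CD9 had 396 and 26.1 CPM, with 366 and 388 CPM in NALM6 and REH. CD24, a heavily glycosylated antigen of B precursors, had 268 and 6.01 CPM, but near-identical copies of this gene make its level uncertain. SEM was thus low for 3 antigens that the other 3 lines shared. PTPRC, the phosphatase CD45, had 674 CPM in RS4;11, 93.4 in SEM, 44.9 in NALM6 and 209 in REH. CD86, a costimulatory ligand, had 0.463 and 14.9 CPM and under 0.32 CPM in the others. NT5E, the nucleotidase CD73, was 4.92-fold higher in SEM (4.32 to 5.62). MME, the antigen CD10 that is typically missing in this leukemia, had 1.02 and 0.476 CPM, against 975 and 1031 CPM in NALM6 and REH.

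**Figure D2:**
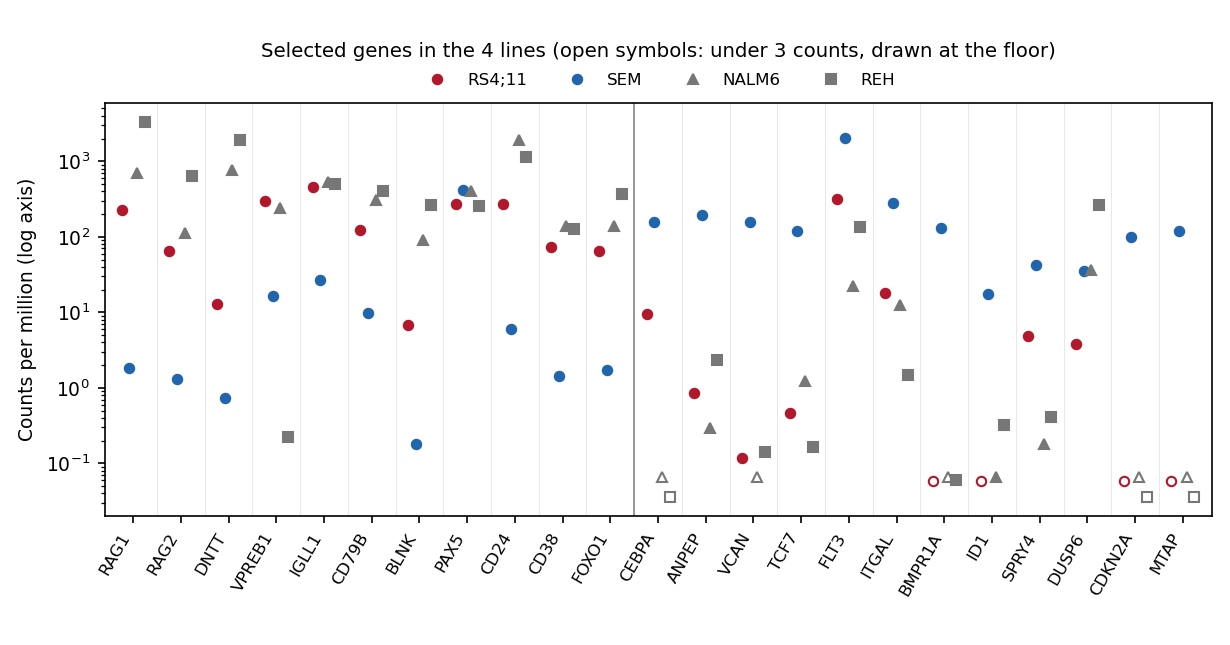
CPM (log axis) of selected genes in RS4;11 (red), SEM (blue), NALM6 (grey triangles) and REH (grey squares), 1 point per library, with counts under 3 drawn as open symbols at the floor. On the left, RAG1, RAG2, DNTT, CD38 and FOXO1 in SEM lie below the other 3 lines, while PAX5 lies within 4-fold in all of them. On the right, CEBPA, ANPEP, VCAN, TCF7, BMPR1A, CDKN2A and MTAP are highest in SEM.

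Of 40 listed myeloid factors and antigens 21 were measured, and 9 of these were at least 4-fold higher in SEM against 1 in RS4;11, with a median log2 ratio of -1.02 (6 of 14 apart at 10 CPM or more). The share apart was 47.6%, beside 10.7% of all measured genes. VCAN, a proteoglycan made by monocytes, had 0.116 and 157 CPM, 1360-fold higher in SEM (624 to 3708), and at most 0.142 CPM in NALM6 and REH. LGALS1, the lectin galectin-1, had 19.7 and 172 CPM. CD33, a myeloid lectin, was 14.3-fold higher in SEM (10.3 to 20.4) at 11.1 CPM, and CD68, a lysosomal protein of macrophages, had 1.72 and 11.2 CPM. The integrin ITGAX, the Fc receptor FCGR1A and the protease inhibitor CST3 were also at least 4-fold higher in SEM, each at under 5 CPM. The member higher in RS4;11 was CEBPE, a late granulocyte factor, at 2.51 and 0.446 CPM. The lean to SEM holds for this list, which includes the given markers CEBPA and ANPEP. Genes outside it that myeloid cells also make went the other way. Among these, F13A1 had 62.6 and 0.0595 CPM, IL1B 56.8 and 0.357 CPM and LILRB4 75.4 and 1.1 CPM. Several defining myeloid genes were at or near 0 in both lines. The granule genes ELANE and PRTN3 had 0 counts, as did S100A8, S100A9 and FCN1, and the granule gene MPO had 0.347 and 0.238 CPM. Summed over the list, the level was 547 CPM in RS4;11, 1221 in SEM, 604 in NALM6 and 541 in REH. In RNA from a whole culture, more cells of a type and more RNA per cell cannot be told apart.

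Lists of other cell types were mixed between the lines. Of measured T and NK genes 46.2% were at least 4-fold apart, beside 10.7% of all measured genes. The shares were 40% for the erythroid and 50% for the stromal list, each with few measured members. Of 35 T and NK lineage genes 13 were measured, 4 at least 4-fold higher in SEM and 2 in RS4;11, with summed levels of 482 and 480 CPM. Beside TCF7, the thymocyte factor TOX had 0.79 and 18.4 CPM, 23.3-fold higher in SEM (17 to 32.8). The defining T-cell receptor genes CD3D, CD3E and CD3G and the coreceptor gene CD8B had 0 counts in both lines, and CD4 had at most 1 count. Of 18 erythroid and megakaryocyte genes 5 were measured, 1 at least 4-fold higher in each line, with 0 counts of HBA1, HBB and PF4 and summed levels of 392 and 599 CPM. Of 17 stromal and epithelial genes 6 were measured, 2 at least 4-fold higher in SEM and 1 in RS4;11. Their summed levels were 55.8 and 151 CPM, most of which was PDGFRB (41.7 and 100 CPM), and COL1A2, EPCAM, KRT19, CDH1 and DCN had 0 counts. The endothelial adhesion gene PECAM1, also made by blood cells, was 12.7-fold higher in SEM (9.74 to 16.8). What part such cells had in the differences between the lines was not tested.

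The genes with the largest ratios at 50 CPM or more, in or outside the lists, are described next, first those higher in RS4;11. They were ranked with counts under 3 set to the floor, while ratios printed for 1 or 2 counts use the counts themselves. Such ratios cannot be ranked against those given at the floor. PRL, the hormone prolactin, had 187 and 0.357 CPM, 524-fold higher (300 to 1014), and stayed under 0.14 CPM in NALM6 and REH. ASS1, the argininosuccinate synthase of arginine synthesis, had 5200 counts and 1 count, a ratio of 3370 with a counting interval of 605 to 133146. NALM6 had 237 CPM of ASS1 and REH 163 CPM, so SEM was the low line. NEGR1, a neuronal adhesion molecule, had 132 CPM and 2 counts (ratio 2223, interval 615 to 18358). F13A1, the A chain of coagulation factor XIII, had 62.6 CPM and 2 counts (ratio 1052, interval 291 to 8690), and GTSF1, a germline factor of small RNA silencing, 78.4 CPM and 2 counts (ratio 1318, interval 365 to 10889). NEGR1 was shared with REH at 107 CPM, whereas F13A1 and GTSF1 were under 0.6 CPM in NALM6 and REH.

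Further genes higher in RS4;11 by this rule included secreted and signalling proteins. CTGF, a matrix-associated growth factor ligand, had 242 and 3.99 CPM, 60.7-fold higher (51.2 to 72.5), with 33 CPM in REH. TNFSF4, the costimulatory ligand OX40L, had 83.3 and 0.446 CPM, and the cytokine IL1B 56.8 and 0.357 CPM. PLCB1, a phospholipase C, had 160 and 2.29 CPM, the small GTPase RHOB 107 and 2.08 CPM, and the G-protein modulator GPSM1 87.9 and 0.803 CPM. For GPSM1, IL1B and the sorting nexin SNX19 (70.3 and 0.297 CPM), NALM6 and REH lay near RS4;11, with at least 25.6 CPM each. The inhibitory receptor LILRB4 was 68.5-fold higher (49.6 to 97.5) in RS4;11 and stood at 42.5 CPM in NALM6 and 0.154 CPM in REH. The remaining members were NRN1, MYO18B, STMN3, LINC00163, IGF2BP2 and CD38, at 55.5 to 132 CPM in RS4;11.

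In SEM the 20 largest ratios were larger still, from 909-fold upward, and the genes had at most 6 counts in RS4;11. ROBO1, a receptor of SLIT guidance cues, had 3 counts and 233 CPM (ratio 4030, interval 1378 to 19546), with 16.4 CPM in REH. TRIB2, a pseudokinase known to target CEBPA protein for degradation, had 1 count and 202 CPM (ratio 10489, interval 1882 to 414335). NALM6 had 43.6 CPM of TRIB2. LAPTM4B, a lysosomal membrane protein, had 0.0771 and 290 CPM, a 3762-fold difference (1469 to 13808). SLC7A2, a transporter of arginine and lysine, had 2 counts and 114 CPM (ratio 2963, interval 820 to 24476), and OAT, an aminotransferase that makes ornithine from glutamate semialdehyde and back, had 0.0771 and 70.1 CPM. NALM6 and REH had 17.7 and 74.4 CPM of OAT and at most 0.0223 CPM of SLC7A2.

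Among the same 20 genes MARCKS, an actin-binding substrate of protein kinase C, had 1 count and 69.7 CPM (ratio 3618, interval 649 to 142966). ADD2, a spectrin-binding adducin, had 1 count and 97.6 CPM, and NETO2, an auxiliary subunit of glutamate receptors, 1 count and 106 CPM. The potassium channel KCNK3 had 2 counts and 77 CPM. All 4 genes were under 0.1 CPM in NALM6 and REH. LPHN3, an adhesion receptor, and PVRL3, the adhesion protein nectin-3, had 0 counts in RS4;11. At the floor they were 1375-fold and 1090-fold higher in SEM (intervals from 1118 and from 886). KIAA0125 had 0 counts in RS4;11, NALM6 and REH and 78.2 CPM in SEM. At the floor this was 1353-fold above RS4;11 (interval from 1099). The desmosomal cadherin DSG2 had 93.2 CPM in SEM and 70.1 CPM in REH, and BEND4 121 CPM in SEM and 159 CPM in NALM6, against 2 counts of each in RS4;11. MED12L, a subunit of the Mediator complex, had 2 counts and 188 CPM.

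Of 17 measured genes for MLL, its fusion partners and cofactors, 1 was at least 4-fold higher in each line, together 11.8% beside 10.7% of all measured genes (median log2 ratio 0.15). MLL had 455 and 265 CPM, and AFF1 485 and 219 CPM, summed over intact and fused alleles. AFF3, a relative of AFF1, had 83.1 and 9.82 CPM, 8.47-fold higher (7.57 to 9.5). MLLT3, another fusion partner gene, had 0 counts and 1.31 CPM and belongs to the chromosome 9 stretch described below. DOT1L, the H3K79 methyltransferase recruited by the fusion, had 146 and 126 CPM, and MEN1, the cofactor that binds MLL, 38.8 and 40.9 CPM.

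Of 21 measured targets of MLL fusions outside HOXA, 1 was at least 4-fold higher in each line, together 9.52% beside 10.7% of all measured genes, and the median log2 ratio was -0.31. FLT3 was the member higher in SEM. The member higher in RS4;11 was IGF2BP2, an RNA-binding protein of fetal cells, with 118 CPM in RS4;11, 0.297 in SEM, 0.334 in NALM6 and 4.65 in REH (397-fold, 216 to 828). MEIS1 had 147 and 131 CPM, MEF2C 1046 and 1208 CPM, and CDK6 2693 and 1746 CPM. The HOXA cluster had 0 of 8 measured members at least 4-fold apart (median log2 ratio 0.46). HOXA9 had 12 and 13.6 CPM, HOXA10 71 and 54.8 CPM and HOXA5 13.6 and 7.05 CPM. In the other HOX clusters HOXC6 had 5.42 and 0.149 CPM, while HOXB7 had 0 counts and 2.2 CPM. Of 13 measured stem and progenitor genes, FLT3 and the homeodomain-like gene HOPX (2.06 and 16.2 CPM) were at least 4-fold higher in SEM and IGF2BP2 in RS4;11. Together these were 23.1%, beside 10.7% of all measured genes.

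Of 16 measured receptor tyrosine kinases, which bind growth factors, 4 were at least 4-fold higher in SEM and 3 in RS4;11 (median log2 ratio -0.16). Together this was 43.8%, beside 10.7% of all measured genes. At 10 CPM or more 2 of 10 were apart. FGFR1, a fibroblast growth factor receptor, had 1.62 and 53 CPM, 32.7-fold higher (26.3 to 41.2). NALM6 and REH had 64.6 and 205 CPM of FGFR1, so RS4;11 was the low line. FGFR4 and the endothelial receptors FLT4 and TIE1 were higher in RS4;11 at under 6 CPM. ERBB2, a partner of the other ERBB receptors, had 109 and 30.5 CPM and lay within 4-fold. Of 24 measured cytokine receptors 3 were higher in SEM (IL2RB, IL13RA1 and LIFR, each under 5 CPM) and 1 in RS4;11 (IL12RB2, 9.47 and 0.268 CPM). Of 19 JAK, STAT, SOCS and PIM genes 1 was higher in each line. SOCS2, an inhibitor of cytokine signalling, had 8.69 and 0.357 CPM against 149 and 112 CPM in NALM6 and REH. CISH was higher in SEM (1.2 and 5.03 CPM). Of the cytokine receptors 16.7% and of the JAK, STAT, SOCS and PIM genes 10.5% were apart, beside 10.7% of all measured genes.

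Of 19 measured integrin subunits 8 were at least 4-fold higher in SEM and 2 in RS4;11, and the median log2 ratio was -1.61 (6 of 12 apart at 10 CPM or more). The share apart was 52.6%, beside 10.7% of all measured genes. ITGB8, which activates latent TGF-beta, had 0.135 and 55.2 CPM, 409-fold higher (198 to 1019). The collagen receptor subunit ITGA2 had 0.79 and 73.7 CPM, and the laminin receptor subunit ITGA6 1.06 and 46.8 CPM. ITGAL, the alpha chain of the leukocyte integrin LFA-1, had 18 and 278 CPM, and ITGB7, the gut-homing beta chain, 4.78 and 94.8 CPM. ITGAL and ITGB7 stood at no more than 14.2 CPM in NALM6 and REH, and ITGB5, 4.41-fold higher in SEM (4.2 to 4.63), at under 0.2 CPM. The members higher in RS4;11 were ITGA2B, a platelet integrin chain, at 6.79 and 1.01 CPM, and ITGA8, at 1.25 CPM and 1 count. Of 20 measured cadherins and other adhesion molecules 5 were higher in SEM and 1 in RS4;11, together 30%, and 14 lay within 4-fold (median log2 ratio -0.56). At 10 CPM or more 3 of 14 were apart. CDH2, the cadherin of neurons and of the haematopoietic niche, had 0 counts in RS4;11, NALM6 and REH and 45.9 CPM in SEM. At the floor this was 794-fold above RS4;11 (interval from 645). CADM1 also had 0 counts in those 3 lines and 15.5 CPM in SEM, 268-fold above RS4;11 at the floor (interval from 217).

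Of 27 measured TGF-beta and BMP genes, 12 were at least 4-fold higher in SEM and 3 in RS4;11, with a median log2 ratio of -1.28 (10 of 21 apart at 10 CPM or more). The share apart was 55.6%, beside 10.7% of all measured genes. Among ligands, TGFB1 had 5.05 and 77.3 CPM, 15.3-fold higher (13.5 to 17.5), with 65.2 and 44 CPM in NALM6 and REH. BMP4 had 0 counts and 9.9 CPM. Among receptors, BMPR1A (chr10:88516396-88684945, hg19), a type I BMP receptor, had 2 counts and 131 CPM (ratio 3397, interval 940 to 28062) and under 0.06 CPM in the others. The type II activin receptors ACVR2A and ACVR2B were 17.8-fold (12.2 to 26.8) and 17.6-fold (15.3 to 20.5) higher in SEM. Among targets, ID1 had 0 counts and 17.3 CPM, 298-fold higher at the floor (interval from 242), and ID2 3.03 and 28.4 CPM. Both encode helix-loop-helix inhibitors that BMP signals induce. The inhibitory SMAD6 and SMAD7 were also higher in SEM, at 1.25 and 7.05 CPM there. SKI, a repressor of SMAD complexes, had 0.694 and 76.4 CPM. The coreceptor TGFBR3 (7.27 and 1.7 CPM) was higher in RS4;11. So were the signal transducers SMAD9 (246 and 35.8 CPM) and SMAD3 (50.3 and 10.2 CPM), 6.87-fold (6.47 to 7.29) and 4.93-fold (4.4 to 5.53). The ID genes and most differing receptors thus lay on the SEM side. Summed over the list, the level was similar, with 1560 CPM in RS4;11 and 1595 CPM in SEM.

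Of 20 measured NOTCH pathway genes 8 were at least 4-fold higher in RS4;11 and 1 in SEM, and 11 lay within 4-fold (median log2 ratio 0.31). Together 45% were apart, beside 10.7% of all measured genes. Among members at 10 CPM or more 3 of 10 were apart. MFNG, a sugar transferase that modifies NOTCH receptors, had 29.7 CPM and 2 counts (ratio 499, interval 138 to 4122), with 140 and 61.4 CPM in NALM6 and REH. DTX4, a ubiquitin ligase of the pathway, had 63.6 and 8.21 CPM, and HES6, a relative of the HES repressors, 92.5 and 12.3 CPM. Smaller levels were counted for the ligand DLL3 (7.96 CPM and 2 counts), the feedback gene NRARP (7.88 and 1.1 CPM) and the repressor HEY2 (2.1 and 0.416 CPM). The exception was the ligand DLL1, with 0.0964 and 8.33 CPM. In the WNT pathway 18.5% of 27 measured members were apart, beside 10.7% of all measured genes (median log2 ratio 0.28). Of these members 1 was higher in RS4;11 and 4 in SEM. TCF7 led these, followed by the receptor FZD4 (2 counts and 5.95 CPM), the ligand WNT10B (0.366 and 3.45 CPM) and the feedback gene AXIN2 (0.945 and 7.55 CPM). The receptor FZD6 was 4.58-fold higher in RS4;11 (3.61 to 5.87).

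Feedback genes of the RAS and MAPK pathway, which ERK signalling switches on, were at least 4-fold higher in SEM for 7 of 30 measured members and in RS4;11 for 0. These 7 were 23.3%, beside 10.7% of all measured genes. The median log2 ratio was -1.07. The count and the median depended on low members, since at 10 CPM or more 2 of 20 were apart and the median was -0.43. Over all 9585 genes at that level, 225 were higher in RS4;11 and 371 in SEM. The ERK phosphatase DUSP6 had 3.82 and 35 CPM, 9.18-fold higher (7.89 to 10.7), and SPRY4, a Sprouty inhibitor of receptor signals, 4.88 and 42.7 CPM, 8.76-fold higher (7.66 to 10). REH had 262 CPM of DUSP6 and NALM6 36.7 CPM, while both had under 0.5 CPM of SPRY4. DUSP4, ETV4, EGR3, FOS and FOSL1 made up the rest, at 1.75 to 9.46 CPM in SEM. SPRY2 (24.5 and 77.5 CPM) and SPRED2 (13.8 and 47.7 CPM) leaned the same way within 4-fold.

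Immune receptor lists were mixed. The shares at least 4-fold apart were 20% of Toll-like genes, 38.5% of TNF receptor genes and 9.38% of interferon-stimulated genes. They were 6.67% for MHC class I and 17.6% for class II, beside 10.7% of all measured genes. Of 20 measured Toll-like receptor genes and adaptors 2 were higher in each line. TLR7, a sensor of single-stranded RNA, had 40.9 and 0.625 CPM, 65.5-fold higher (42.7 to 106), and CD180, a B-cell relative of TLR4, 36.9 and 4.85 CPM. TLR2 (0.424 and 8.06 CPM) and the kinase IRAK2 (5.53 and 56.3 CPM) were higher in SEM. Of 13 measured TNF receptor genes 4 were higher in SEM and 1 in RS4;11. The TRAIL receptor TNFRSF10B had 6.69 and 39.5 CPM, 5.9-fold higher (5.24 to 6.66), with 60.2 and 124 CPM in NALM6 and REH. TNFRSF13B, the receptor TACI, had 1.47 CPM and 0 counts. Of 32 interferon-stimulated genes OAS2 was higher in RS4;11 (99.3 and 22.3 CPM) and IFITM3 and GBP2 in SEM, each at under 10 CPM. Of 15 MHC class I genes ERAP2, a peptide-trimming enzyme, was 4.7-fold higher in SEM (4.38 to 5.03). Of 17 class II genes HLA-DRB5 and HLA-DOB were higher in SEM and CTSH in RS4;11, and the HLA values are uncertain because near-identical copies share reads.

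**Figure D3:**
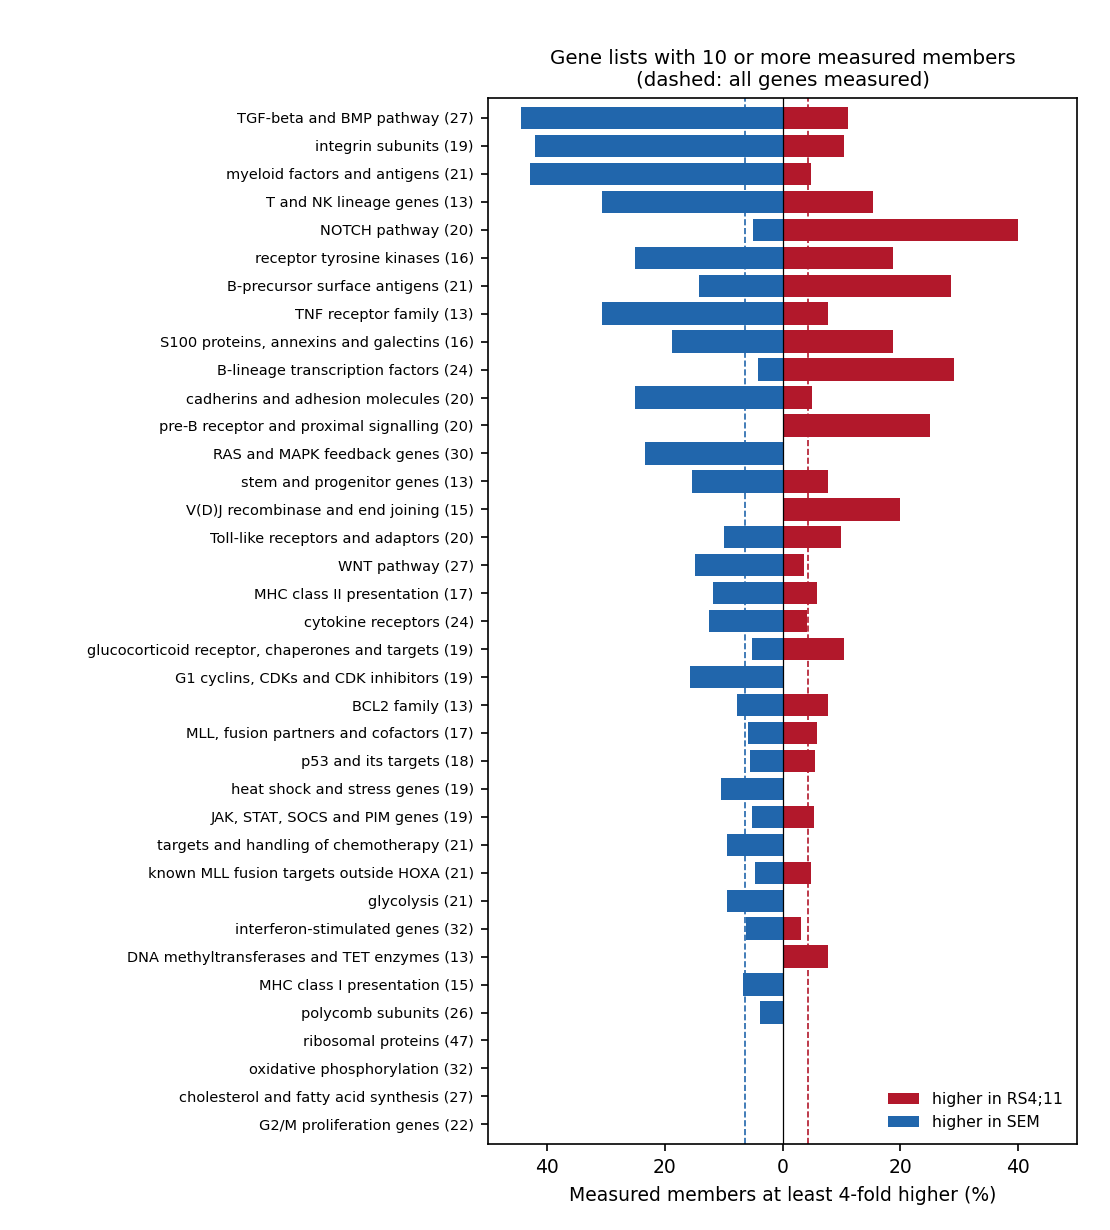
Share of the measured members of each list with at least 10 of them (number in brackets) at least 4-fold higher in RS4;11 (red, to the right) or SEM (blue, to the left), with dashed lines at the shares over all measured genes, 4.29% and 6.37%. TGF-beta and BMP genes, integrins and the listed myeloid genes reach far to the SEM side, NOTCH and B-lineage lists to the RS4;11 side. The 4 lists at the bottom have no member on either side.

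All 22 measured G2/M genes lay within 4-fold, with a median log2 ratio of -0.06. Of 19 measured G1 genes 3 were at least 4-fold higher in SEM, namely CDKN2A, CDKN2B and CCND1, a G1 cyclin at 0.366 and 1.61 CPM. This was 15.8%, beside 10.7% of all measured genes. CDKN2A (chr9:21967138-21994490, hg19), which encodes the CDK4 and CDK6 inhibitor p16 and the MDM2 inhibitor p14ARF, had 0 counts and 98.2 CPM. At the floor this was 1699-fold higher (interval from 1381). Its neighbour MTAP (chr9:21802635-21865969), an enzyme of methionine salvage, had 0 counts and 120 CPM, 2080-fold higher at the floor (interval from 1691). In NALM6 and REH both genes had at most 2 counts. In this stretch of chromosome 9, a run of 8 measured neighbours were higher in SEM: MLLT3, KIAA1797, PTPLAD2, KLHL9, MTAP, CDKN2A, CDKN2B and CDKN2B-AS1. KLHL9, a ubiquitin ligase adaptor, had 0 counts and 71.1 CPM, and KIAA1797 had 1 count and 30 CPM. None of the 8 had more than 1 count in RS4;11 or more than 2 counts in NALM6 or REH. Nearer to the chromosome end, the ribosomal gene RPS6 had 3089 and 2400 CPM and the mitosis gene HAUS6 151 and 168 CPM, and both were also expressed in NALM6 and REH. The files hold no DNA copy number, and its part in this stretch was not tested.

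**Figure D4:**
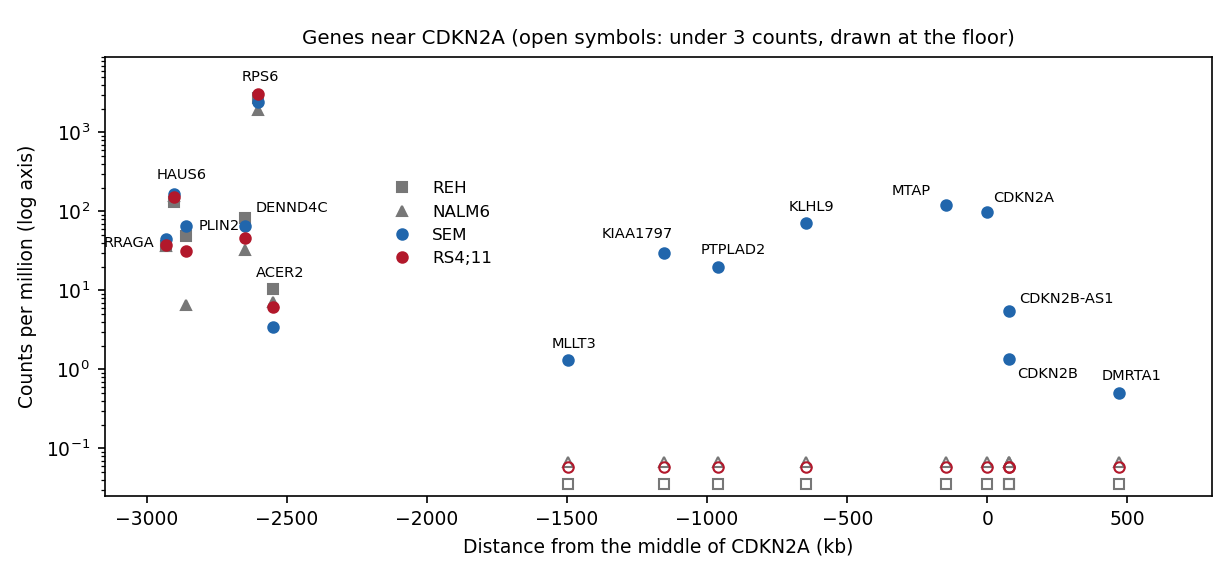
CPM (log axis) of genes within 3 Mb of CDKN2A that reached 0.4 CPM in RS4;11 or SEM, by distance of the gene's middle from that of CDKN2A, with counts under 3 as open symbols at the floor. From MLLT3 to DMRTA1 only SEM (blue) has counts above the floor, while the group of genes near RPS6 is expressed in all 4 lines.

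The ratio also varied by chromosome arm. The median log2 ratio was -1.11 over 147 measured genes of 8p, of which 13 were higher in RS4;11, and 0.47 over 271 genes of 8q, of which 228 were higher in RS4;11. It was 0.77 over 215 genes of 13q, with 165 higher in RS4;11, and 0.29 over 404 genes of 7q, with 287 higher in RS4;11. Every other arm with at least 20 measured genes lay between -0.15 and 0.09. On 8p the windows of 10 to 20 Mb, 20 to 30 Mb and 30 to 40 Mb had medians of -0.96, -1.18 and -1.11. On 13q the medians were 0.48 at 20 to 30 Mb, where FLT3 lies, and 0.13 at 30 to 40 Mb. They were 0.98 at 40 to 50 Mb, 0.88 at 50 to 60 Mb and 1.03 at 110 to 120 Mb. These shifts touch many genes named in the text that lie on those arms. Among them are FGFR1, SLC7A2, EGR3 and TNFRSF10B on 8p and LAPTM4B, TOX, FZD6 and PRKDC on 8q. Others are ASNS and PEG10 on 7q, and FOXO1, FLT3, SMAD9, HMGB1 and LIG4 on 13q. FLT3 on 13q, LAPTM4B and TOX on 8q, and ASNS and PEG10 on 7q were higher in SEM although those arms leaned to RS4;11. The log2 ratio was -2.56 for TNFRSF10B and 5.26 for FOXO1, each larger than the median of its arm, and the part of the arm in these ratios was not tested.

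**Figure D5:**
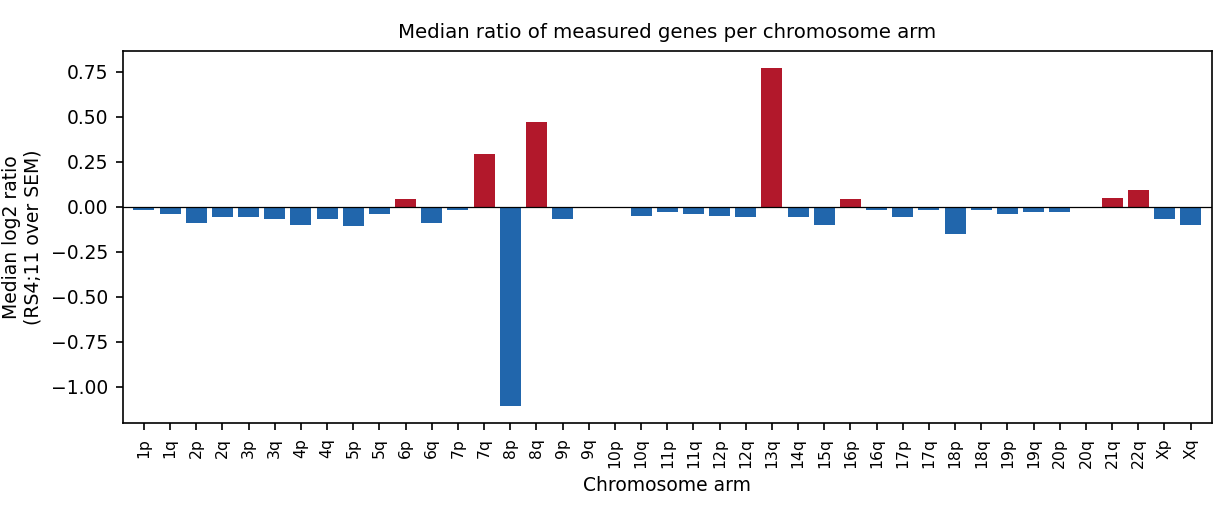
Median log2 ratio of RS4;11 over SEM per chromosome arm with at least 20 measured genes, red where positive and blue where negative. The bars of 8p (-1.11), 13q (0.77), 8q (0.47) and 7q (0.29) stand out from the others.

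None of 47 measured ribosomal protein genes, 32 oxidative phosphorylation genes or 27 cholesterol and fatty acid synthesis genes reached 4-fold, and their median log2 ratios were 0.13, 0.08 and -0.14. Of 21 glycolysis genes ENO2, the neuronal enolase, and SLC16A3, a lactate exporter, were higher in SEM, 26.2-fold (17.2 to 41.8) and 14.7-fold (11.6 to 18.9). Of 26 polycomb genes PCGF2 was higher in SEM (0.289 and 8.12 CPM), and of 13 DNA methylation genes TET1, which oxidises methylcytosine, was higher in RS4;11 (3.03 and 0.744 CPM). Among 16 S100, annexin and galectin genes 3 were higher in each line. ANXA2, a membrane-binding annexin, had 181 and 1041 CPM. S100A16 had 13.1 CPM and 0 counts, 147-fold higher in RS4;11 at the floor (interval from 119). The imprinted gene PEG10 had 10.7 and 93.8 CPM. Shares at least 4-fold apart were 9.52% for glycolysis, 3.85% for polycomb, 7.69% for DNA methylation and 37.5% for S100, annexin and galectin genes. Over all measured genes the share was 10.7%.

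Genes tied to treatment and cell death differed singly. The shares at least 4-fold apart were 9.52% of drug genes and 15.8% of the glucocorticoid list. They were 15.4% of the BCL2 family and 11.1% of the p53 list, beside 10.7% of all measured genes. ASNS, the asparagine synthetase that counters asparaginase, had 11.8 and 90.8 CPM, 7.72-fold higher (7.08 to 8.44), with 134 and 154 CPM in NALM6 and REH. ABCB1, a drug efflux pump, had 3 counts and 2.29 CPM, and these were the 2 of 21 measured drug genes at least 4-fold apart. In the glucocorticoid list 2 of 19 were higher in RS4;11, the receptor chaperone FKBP4 (38.9 and 6.81 CPM) and the mineralocorticoid receptor NR3C2 (6.03 and 0.416 CPM). The induced kinase SGK1 was 12.7-fold higher in SEM (10.5 to 15.6). Of 13 BCL2 family genes BMF, a death-promoting member, had 33.3 and 208 CPM, 6.26-fold higher in SEM (5.94 to 6.6), and BIK was higher in RS4;11 (1.41 and 0.178 CPM). Of 18 measured p53 targets and regulators PHLDA3 was higher in RS4;11 (3.7 CPM and 0 counts) and TNFRSF10B in SEM.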

How the data were processed

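RNA-seq of 4 cell lines, 1 library each, was analysed from the deposited tables. Per the file headers, the authors' DESeq table gives raw HTSeq counts for every line and gene beside a normalized signal, found to be each count over a size factor of its library. Per the submitters' processing notes the tools named are TopHat2 2.0.4, CASAVA 1.8.2, HTSeq, TopHat, Cuffdiff and DESeq, on build hg19. What each did, with which settings and gene annotation, is not given in the sources used. The deposited Cuffdiff table gave hg19 loci only, written here from base 1. Such a locus can span more than a single gene.

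Of 23368 entries, 28 with a date in place of a symbol were left out by name, and 4 repeated symbols were not used for naming. Counts were divided by the column sum (CPM), genes at 1 CPM in RS4;11 or SEM were kept, and a count under 3 was set to 3. A 4-fold ratio was the threshold. No test across genes was possible with 1 library per line, and counting intervals came from scipy 1.17.1. Alternatives were TMM-scaled library sizes (edgeR 4.0.16 in R 4.3.3), the authors' normalized counts, a filter at 10 CPM, no CPM filter, folds of 2 and 16, and thinning to a common total. Thinning all 4 lines was chosen after seeing the data.

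The members and the 45 gene lists were chosen with earlier results of these data known. Named by rule were 5 given marker genes, 8 precursor-B genes, the 20 largest ratios each way at 50 CPM or more, and up to 5 list members each way at 10 CPM or more and 4-fold. Of these, 2 genes are not reported here. Other genes were named to complete a small count, as a list's defining genes, or after their values were seen. The counting and interval code was tested on simulated data. Of the list members, 1050 of 1051 symbols were in the table. Promoters came from RefSeq (GRCh38.p14) by symbol. A comparison of CG content between gene classes was void, since fewer than 80% of the genes had a promoter matched. Python 3.11.15 and matplotlib 3.10.9 drew the figures.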

Additional observations from a re-analysis of the deposited data

How the results depend on the processing

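The count of differing genes moved with the cutoffs. With a filter of 10 CPM in place of 1 CPM, 225 genes were at least 4-fold higher in RS4;11 and 371 in SEM, of 9585. At 2-fold the counts were 1181 and 1446, and at 16-fold 215 and 450. SEM held the larger count under each of these settings. With TMM-scaled library sizes, the authors' normalized counts, no CPM filter, or both libraries thinned to 33620574 counts, the counts stayed within 1.5 times of 534 and 793. TMM and DESeq scaling shifted all log2 ratios by 0.03 and 0.02, and the share of differing genes higher in SEM was 59.8% by column sums, 59% by TMM and 59.4% by DESeq. Under these 2 scalings the log2 ratios of all 111 genes named by rule and all 45 list medians moved only by these shifts. The counts of all 45 lists stayed within 1.5 times. The 10 CPM filter, which removes low members, moved the counts of 25 of 44 lists and the medians of 12. The 4 arm medians of 7q, 8p, 8q and 13q held under TMM and the 10 CPM filter. No paired analysis was possible because each line has 1 library, and for the same reason no library could be left out. Ratios of genes with under 10 counts in the lower line have wide counting intervals, and levels under 0.0578 CPM in RS4;11 or 0.0892 CPM in SEM were not resolved at this depth.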

Other observations

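Groups of neighbouring genes outside the lists differed together between RS4;11 and SEM. They were found by a search for 3 or more measured neighbours at least 4-fold higher in the same line, and gene families in such a row may share reads. In RS4;11 the metallothionein genes MT1E, MT1F, MT1G and MT1X on chromosome 16, which encode metal-binding proteins, had 11.7, 10.1, 9.85 and 30.1 CPM, against 1.61, 2.35, 0.149 and 7.05 CPM in SEM. The lipocalin genes LCN10, LCN6 and LCN8 on chromosome 9 had 58, 37.6 and 7.54 CPM against 2.86, 1.78 and 0.535 CPM. In SEM the G-protein regulators RGS1, RGS13 and RGS2 on chromosome 1 had 8.92, 4.7 and 114 CPM against 1, 0.54 and 6.17 CPM in RS4;11. The lymphocyte GTPases GIMAP4, GIMAP6 and GIMAP8 on chromosome 7 had 1.13, 3.06 and 4.22 CPM in SEM and at most 0.482 CPM in RS4;11. The homeobox genes DLX1 and DLX2 on chromosome 2, beside ITGA6, had 10.1 and 5.98 CPM in SEM and 1 and 0 counts in RS4;11.

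Leukocyte immunoglobulin-like receptors leaned to RS4;11, where 5 of 8 measured genes with a KIR or LILR symbol were at least 4-fold higher and 1 lower. Together 75% were apart, beside 10.7% of all measured genes. LILRB1 had 16.7 CPM in RS4;11 and 0.684 in SEM, LILRB2 17.6 and 3.15 CPM, and LILRA2 49.9 and 10.9 CPM, while LILRA6 had 0.212 and 1.4 CPM. These genes resemble each other in sequence, so their counts are uncertain. Among 21 measured protocadherins 5 were higher in each line, together 47.6%. PCDHGA12 had 0.463 CPM in RS4;11 and 13.2 in SEM and PCDHGB5 0.212 and 8.71 CPM, while PCDHB13 had 3.45 and 0.149 CPM. The gamma genes share their last exons. Among 448 measured zinc finger genes with a ZNF symbol 31 were higher in SEM and 11 in RS4;11, together 9.38%, and among 211 solute carriers 21 and 7, together 13.3%, both near the 10.7% of all measured genes. None of 38 proteasome genes and 78 mitochondrial ribosomal protein genes was 4-fold apart.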
